A study of Saccharomyces cerevisiae with 8 samples.

Results

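The comparison described here set the trm2 knockout of Saccharomyces cerevisiae against its wild type while both grew in hygromycin B. It was made from 4 of the 8 libraries of the series, chosen by their labels: 2 of wild type BY4741 and 2 of the Trm2KO strain, each grown with 50 µg/mL hygromycin B. Of the 7127 features in the deposited table, the 6439 with a mean of at least 1 FPKM (fragments per kilobase of transcript, scaled to the mapped fragments of a library) over the 8 libraries were compared. Wild type is the haploid MATa laboratory strain BY4741, grown in the rich medium YPD at 30 °C. The knockout lacks TRM2 (YKR056W), and per the labels' protocols its cultures also held 200 µg/mL Geneticin, an agent not named for wild type. What the knockout did and what Geneticin did cannot be told apart. Both treated groups were harvested at an OD600 of 0.4. The other 4 libraries, wild type and knockout without hygromycin B, were harvested at an OD600 of 0.6 to 0.8 and serve below as the background and for the test of the difference between drug conditions. The series calls its replicates biological duplicates. The question of the series is how gene expression under inhibited elongation depends on the methylation that Trm2 adds to tRNA.

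Trm2 is the methyltransferase that makes 5-methyluridine in the T loop of nearly all cytosolic elongator tRNAs, a modification that stabilises the folded tRNA and is dispensable for growth in rich medium. Hygromycin B is an aminoglycoside that binds the decoding site of the small ribosomal subunit and slows translocation, the movement of tRNAs and mRNA through the ribosome after each peptide bond. Geneticin is a related aminoglycoside, commonly used to select for the resistance cassette with which yeast genes are replaced.

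Levels are given as normalised FPKM, the deposited FPKM divided by a median-of-ratios scale factor per library. Differences are knockout minus wild type on the log2(normalised FPKM + 1) scale, fitted with limma over all 8 libraries, and a change is a Benjamini-Hochberg adjusted p under 0.05. On this scale folds of genes with low levels are understated. The scale factors ran from 0.611 to 1.44. Features named for ribosomal DNA took 2.68% and 2.39% of the FPKM sum in treated wild type and 3.75% and 12.2% in the treated knockout, so knockout library 2 stood apart from its replicate in this share. Pearson correlations between the log2 values of replicates were 0.986 in both treated groups. Each difference is relative to the rest of its libraries: fewer cells of a kind, less RNA per cell and a changed level of 1 gene cannot be told apart here. With FPKM as deposited the median difference of all genes moved from −0.03 to −0.53, and with TPM (each library scaled to the same sum) to −0.35, so the directions below are relative to the middle gene of the scaled libraries. Where a group's direction turned under such a scaling, it is said beside the group.

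TRM2 was at 158 and 152 normalised FPKM in the treated wild-type libraries and was listed at 0 in both treated knockout libraries, so the target gene went with the labels of the 4 libraries. Its neighbour RHO4, a small GTPase gene, was at 72.9 and 68.2 in wild type and at 41.6 and 39.7 in the knockout. The neighbour on the other side, RPS21A, a ribosomal protein gene, was at 1541 and 1483 in wild type and at 2730 and 2555 in the knockout. RHO4 was 1.72-fold lower (log2 −0.78 ± 0.06 SE, n = 2 per group, limma adjusted p = 3.2e-05). RPS21A was 1.75-fold higher, a call that ended with FPKM as deposited (log2 0.30), with TPM (0.48) and under quantile normalisation (0.03).

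With hygromycin B the genotypes differed at most genes. Of 6439 genes, 4970 changed (77.2%), 2399 of them higher in the knockout (37.3% of the genes tested) and 2571 lower (39.9%). At least 2-fold changes were made by 1678 genes (26.1%), 788 higher (12.2%) and 890 lower (13.8%), and 5715 genes (88.8%) had no overlap between the libraries of the groups. The shares called higher and lower, 37.3% and 39.9%, and at least 2-fold, 12.2% and 13.8%, are the background for the list counts below. The median absolute difference was 0.592, against 0.229 between the same genotypes without hygromycin B. The counts moved with the scaling: with FPKM as deposited 2128 genes passed, 16.6% of them higher, and with TPM 3966 passed, 28.7% of them higher, against 48.3% with the scale factors. On the first principal component of all 8 libraries, with 73% of the variance, treated wild type lay at 72.0 and 64.5. The other 6 libraries lay between −34 and −15.4, so on this component the treated knockout lay with the untreated libraries. The second component, with 12.85% of the variance, set the treated knockout apart, at 20.5 and 22.7. Untreated knockout lay there at 4.73 and 2.87, treated wild type at −0.16 and −0.09, and untreated wild type at −24.5 and −26.1.

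**Figure D1:**
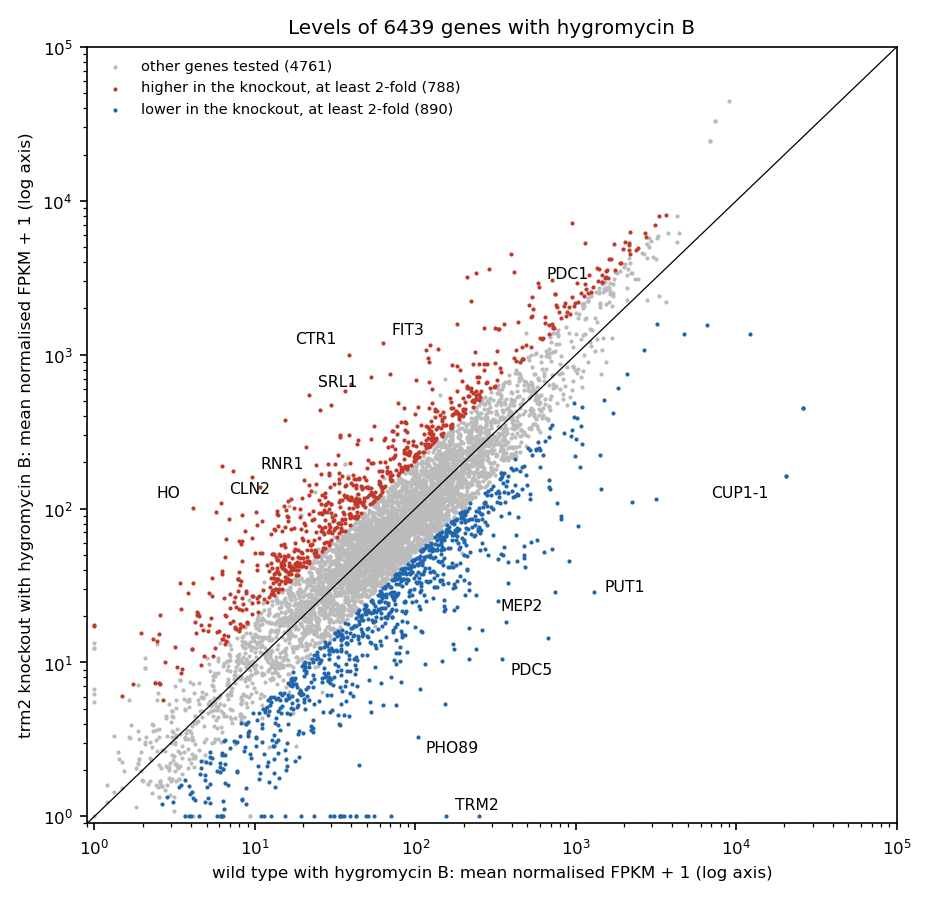
Mean normalised FPKM + 1 of each of 6439 genes in wild type (horizontal) and in the trm2 knockout (vertical), both with hygromycin B, n = 2 libraries per group, on log axes; the line marks equal levels. Red points, 788 genes, were at least 2-fold higher in the knockout and blue points, 890 genes, at least 2-fold lower; CUP1-1 lies far below the line and CTR1 and HO far above it.

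Copper genes gave the lowest difference among genes above 0 in every library and one of the highest. CUP1-1, which encodes the copper-binding metallothionein, was at 21543 and 19126 normalised FPKM in treated wild type and at 164 and 162 in the treated knockout. The difference was 124-fold (log2 −6.95 ± 0.21 SE, limma adjusted p = 1.2e-06), and no knockout library came near a wild-type one. CUP1-2, a repeat copy, has the same values in every library, since near-identical copies share reads. RUF5-1 and RUF5-2, RNAs annotated across the same repeats, were at 29960 and 22406 against 425 and 472. The strand setting is unknown, so the RUF5 values may hold reads of CUP1. MNC1, a gene for a small metal-induced protein, was at 729 and 615 in wild type and at 9.42 and 17.4 in the knockout. In the opposite direction, CTR1, the high-affinity copper importer of the plasma membrane, was at 35.4 and 39.6 in wild type and at 1025 and 972 in the knockout, 26-fold higher (log2 4.70 ± 0.10 SE, adjusted p = 5.3e-07). YPR123C, a reading frame listed beside CTR1 among the highest and not in the annotation used here, was at 15 and 13.7 against 379 and 376. Its overlap with CTR1 could not be checked, so its values may hold reads of CTR1. Of 13 copper genes tested 4 were higher (30.8%, against 37.3% of all genes) and 7 lower (53.8%, against 39.9%). CUP1-1 and CUP1-2, which have the same values, are both counted among the lower ones. CUP2, the copper-sensing activator of CUP1, was at 250 and 239 in wild type and at 73 and 72 in the knockout. FRE7, a copper-regulated reductase, was at 28.7 and 23.8 against 102 and 108. MAC1, the activator of CTR1 under copper limitation, was lower by a log2 difference of −1.15, and PCA1, a cation pump that removes cadmium and copper, by −1.83. Without hygromycin B, CUP1-1 was at a mean of 373 in wild type and 222 in the knockout and CTR1 at 494 and 835, so the treated wild type was the group that stood apart for both.

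Iron genes were mixed. Of 32 tested, 10 were higher (31.2%) and 13 lower (40.6%), near the shares of all genes (37.3% and 39.9%), with a median of −0.07 that turned to 0.03 without treated wild-type library 2. Single members differed by much more than the median. FIT3, a wall mannoprotein that retains siderophore iron, was at 46.9 and 77.1 in treated wild type and at 1363 and 1024 in the treated knockout, 19.3-fold higher. FRE1, the main ferric and cupric reductase of the surface, was at 29.1 and 28.2 against 475 and 462, 15.8-fold higher (log2 3.98 ± 0.06 SE, limma adjusted p = 2.5e-07). FIT2 differed by 3.04, and the siderophore transporters ARN2 and SIT1 by 1.90 and 1.45. The call for SIT1 ended with FPKM as deposited (log2 0.94). HMX1, a heme oxygenase, differed by 1.55. The vacuolar and other reductases FRE3, FRE4 and FRE6 were lower, by log2 differences of −1.30, −1.31 and −0.78, as were the iron-sulfur scaffold gene ISU1 (−1.02) and AFT2, 1 of the paired iron regulators (−0.87). The high-affinity uptake pair was uneven: FET3, the multicopper ferroxidase, was higher by 0.60, and its permease FTR1 did not pass (−0.12). Without the drug the list stood higher in the knockout, with a median of 0.66, and the interaction was lower at 20 of the 32 genes and higher at 4 (median −0.53). FIT3 was then at a mean of 250 in wild type and 1319 in the knockout, a difference of 2.35, and SIT1 differed by 1.85.

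Genes that yeast uses to scavenge poor nitrogen sources formed the list with the lowest median. These genes are switched off in the presence of preferred sources such as ammonium or glutamine, a control called nitrogen catabolite repression, in which GATA factors act on their promoters. Of 34 tested, 27 were lower in the knockout, 3 higher, and 4 did not pass; 21 of them, 61.8%, were at least 2-fold lower, against 13.8% of all genes, and the median was −1.38 against −0.03. PUT1, proline oxidase, was at 1360 and 1255 in treated wild type and at 24.6 and 30.6 in the treated knockout, 46-fold lower (log2 −5.52 ± 0.13 SE, limma adjusted p = 6.4e-07). MEP2, an ammonium permease, was at 723 and 765 against 26.9 and 28.3. GAP1, the general amino acid permease, was at 328 and 406 against 17.8 and 16.6. DAL3 and DAL7, of allantoin degradation, were at 211 and 221 against 9.89 and 9.25, and at 211 and 195 against 26.4 and 26.8. In each of these genes the groups were far apart. In the treated knockout PUT1 lay above its untreated means, 5.91 in wild type and 7.07 in the knockout, as did DAL3 above 5.60 and 5.66, whereas GAP1 lay between its untreated means of 19.1 and 15.4 and MEP2 between 32.0 and 21.2. Against the list, DUG1, a dipeptidase of glutathione breakdown, was higher, at 103 and 113 against 175 and 179, a call that ended with FPKM as deposited (log2 0.20) and in TPM (0.38). Outside this list, PUT3, the proline-sensing activator of PUT1, was also higher, at 8.73 and 8.59 against 26.5 and 25.7 (log2 1.49).

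The windows upstream of 4 of these genes are shown because the GATA letters recur in them. They run from 300 to 51 bases before the start codon in the RefSeq assembly R64, on the gene's strand, 250 bases each, and the table's own build was not given in the sources used here. Capitals mark GATAAG or its reverse complement.
PUT1, chrXII:424886-425135, plus strand: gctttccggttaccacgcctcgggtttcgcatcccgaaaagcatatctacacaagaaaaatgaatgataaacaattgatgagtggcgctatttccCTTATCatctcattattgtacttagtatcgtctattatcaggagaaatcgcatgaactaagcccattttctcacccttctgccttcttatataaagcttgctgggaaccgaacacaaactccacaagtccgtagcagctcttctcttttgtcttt
MEP2, chrXIV:357153-357402, plus strand: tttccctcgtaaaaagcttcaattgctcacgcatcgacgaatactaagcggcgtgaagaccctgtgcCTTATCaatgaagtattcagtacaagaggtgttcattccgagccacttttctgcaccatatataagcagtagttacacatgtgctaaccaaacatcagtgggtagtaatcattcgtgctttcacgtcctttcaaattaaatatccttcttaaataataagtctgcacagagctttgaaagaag
GAP1, chrXI:514763-515012, plus strand: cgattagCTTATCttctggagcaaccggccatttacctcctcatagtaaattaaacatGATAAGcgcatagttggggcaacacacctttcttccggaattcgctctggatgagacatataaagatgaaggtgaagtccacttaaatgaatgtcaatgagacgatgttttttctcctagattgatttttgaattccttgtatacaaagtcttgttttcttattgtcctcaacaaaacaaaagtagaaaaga
DAL3, chrIX:415668-415917, minus strand: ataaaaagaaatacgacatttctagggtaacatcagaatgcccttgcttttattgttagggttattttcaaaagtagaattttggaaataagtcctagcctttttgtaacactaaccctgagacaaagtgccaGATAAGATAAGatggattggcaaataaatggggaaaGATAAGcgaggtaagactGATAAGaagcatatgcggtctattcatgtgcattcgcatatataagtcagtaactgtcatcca
The letters occur 1 time in the windows of PUT1 and of MEP2, 2 times in that of GAP1 and 4 times in that of DAL3. They were present in 21 of 34 windows of the list (61.8%), in 704 of 5813 windows of all genes (12.1%), in 127 of 806 of the genes at least 2-fold lower (15.8%) and in 76 of 705 of those at least 2-fold higher (10.8%). The list was drawn up from genes known to answer to GATA factors, so its share is a description of the list.

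**Figure D2:**
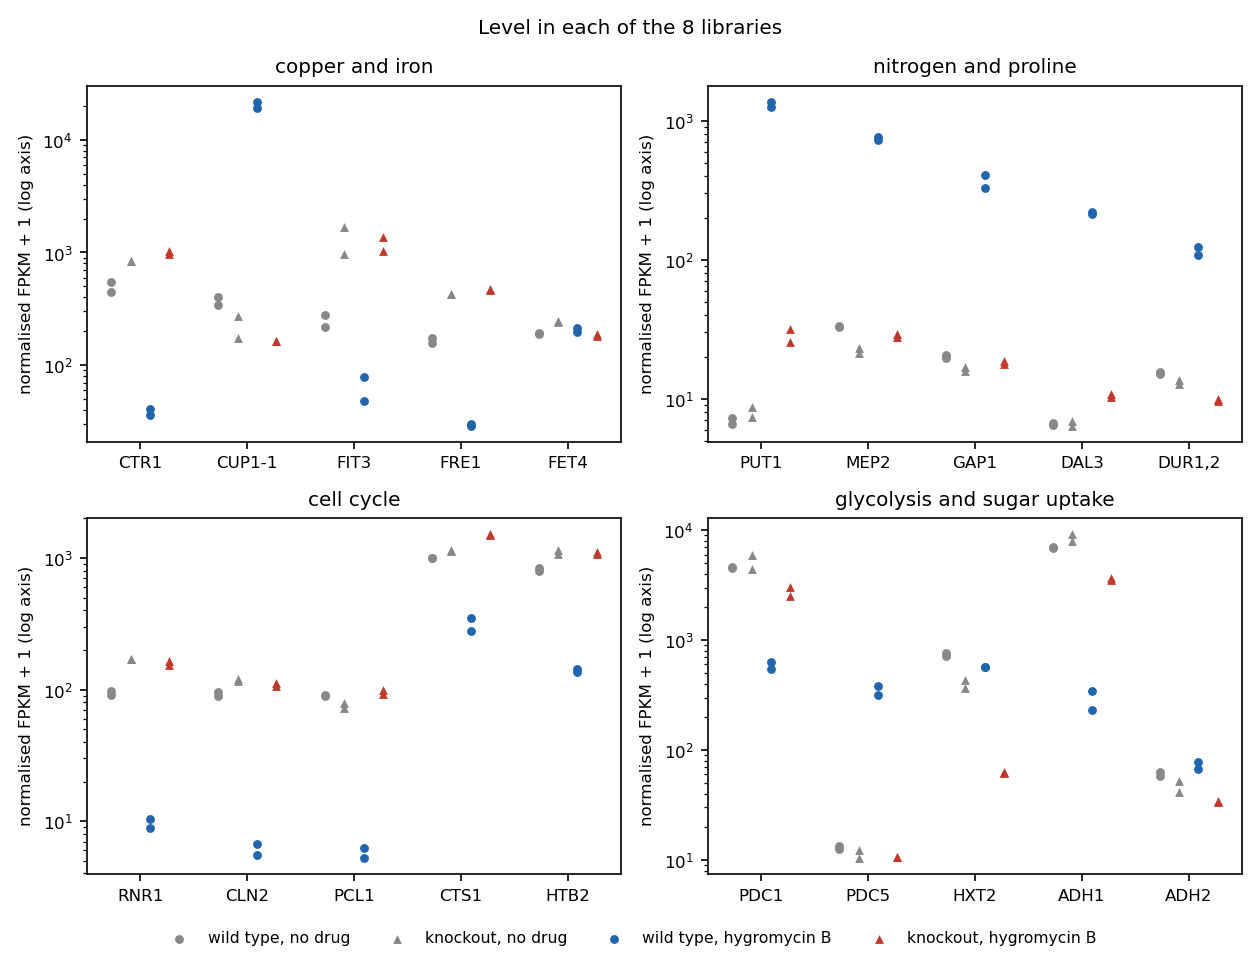
Normalised FPKM + 1 in each of the 8 libraries, on log axes, for 5 genes in each of 4 groups; grey points are untreated, blue points wild type with hygromycin B and red points the knockout with hygromycin B, and each point is 1 library. For CTR1, PUT1, RNR1 and PDC5 the blue points stand apart from the red points, and the red points lie nearer to the grey ones.

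Genes of glycolysis were mostly higher in the knockout, and those of glucose uptake and of gluconeogenesis mostly lower. Glycolysis turns glucose into pyruvate, and in fermenting yeast pyruvate decarboxylase and alcohol dehydrogenase carry it on to ethanol. Of 24 glycolysis and fermentation genes 19 were higher in the knockout (79.2%, against 37.3% of all genes) and 3 were lower. At least 2-fold higher were 14 (58.3%, against 12.2%), and the median was 1.16. Without the scale factors, in FPKM as deposited, 9 were higher and 3 lower (median 0.65). ENO2, the main enolase, was at 193 and 284 normalised FPKM in treated wild type and at 3442 and 3329 in the treated knockout, 14.4-fold higher (log2 3.85 ± 0.18 SE, limma adjusted p = 5.2e-06). PGK1, phosphoglycerate kinase, was at 202 and 238 against 2283 and 2153. ADH1, the main fermentative alcohol dehydrogenase, was at 230 and 347 against 3705 and 3523. GPM1, phosphoglycerate mutase, differed by 3.52, and the glyceraldehyde-3-phosphate dehydrogenases TDH2 and TDH3 by 2.76 and 2.95. The upper steps differed less: PGI1 by 1.01, PFK1 by 1.14 and PFK2 by 0.94, and the call for PFK1 ended with FPKM as deposited (log2 0.63). PDC1, the main pyruvate decarboxylase, was at 543 and 627 against 2493 and 3021. Its paralogue PDC5 went the other way, from 381 and 314 in wild type to 9.6 and 9.58 in the knockout, 32.8-fold lower. ADH5 and PDC6 were the other lower members. ALD6, the cytosolic acetaldehyde dehydrogenase that leads to acetate, was at 35 and 35.8 against 584 and 575.

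Genes of glucose transport and sensing were mostly lower in the knockout. Of 20 genes tested 13 were lower (65%, against 39.9% of all genes) and 4 were higher. At least 2-fold lower were 11 (55%, against 13.8%), and the median was −1.06. HXT2, a high-affinity glucose transporter, was at 568 and 573 normalised FPKM in treated wild type and at 62.4 and 60.6 in the treated knockout, 9.15-fold lower (log2 −3.19 ± 0.08 SE, limma adjusted p = 7.4e-07). HXT2 was at a mean of 740 in untreated wild type and 396 in the untreated knockout, so here the treated knockout was the lowest group. HXT5, a transporter of slow growth, was at 60.3 and 49.5 against 8.77 and 7.97. MTH1, a corepressor of hexose transporter genes, was at 216 and 216 against 33.5 and 29.9, and the glucose sensors SNF3 and RGT2 differed by −1.27 and −1.08. HXT6 differed by −2.75 and HXT7 did not pass (−0.03), and these near-identical genes share reads, so neither value stands on its own. The low-affinity transporters were uneven. HXT3 was lower, at 899.5 and 982.6 against 350.9 and 294.6 (log2 −1.54). HXT1 was higher, at 149 and 162 against 223 and 216, a call that ended with TPM (log2 0.17) and was at −0.01 with FPKM as deposited. Genes of gluconeogenesis, the glyoxylate cycle and acetate use were mostly lower: 19 of 25 (76%), with 5 higher and a median of −0.86. CIT2, the peroxisomal citrate synthase, was at 1542 and 1314 against 127 and 138, 10.7-fold lower. The gluconeogenic enzymes FBP1 and PCK1 were at 25.1 and 25.1 against 6.62 and 6.39, and at 25.8 and 24.2 against 7.27 and 6.7. Of 51 genes of the respiratory chain and the tricarboxylic acid cycle 17 were higher (33.3%) and 20 lower (39.2%), with a median of −0.06. These shares are near those of all genes (37.3% and 39.9%). With TPM 4 were higher and 25 lower, and with FPKM as deposited 1 was higher and 14 lower. CYC1, the aerobic cytochrome c, was at 28.4 and 29 against 92.1 and 93.7, and CYC7, the form favoured at low oxygen, at 874 and 548 against 49 and 58.8.

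Cell cycle genes were mostly higher in the knockout, from the G1 cyclins to daughter separation. In the budding yeast cycle the factors SBF and MBF switch on G1/S genes, and other factors later switch on genes for separation of the daughter cell. Of 56 G1/S and replication genes 47 were higher, 30 at least 2-fold (53.6%, against 12.2% of all genes), and 3 were lower; the median was 1.23. With FPKM as deposited 20 were higher and 0 lower at the same threshold (median 0.73). CLN2, a G1 cyclin, was at 4.5 and 5.74 normalised FPKM in treated wild type and at 105 and 111 in the treated knockout, 17.9-fold higher (log2 4.16 ± 0.10 SE, limma adjusted p = 6.8e-07). PCL1, a cyclin of the Pho85 kinase, was at 4.26 and 5.19 against 92 and 97.5. RNR1, the large subunit of ribonucleotide reductase, was at 7.87 and 9.42 against 153 and 164. MCD1, the cohesin cleavage subunit, was at 9.46 and 9.95 against 136 and 137. POL30, the sliding clamp, was at 18.8 and 19.7 against 151 and 155. In all 5 the knockout libraries were far above both wild-type libraries and their mean was within 2-fold of both untreated means, which for CLN2 had means of 92.2 and 117. The replicative helicase subunits did not share this: MCM3 and MCM6 were higher by 0.70 and 0.74, MCM5 was lower by a log2 difference of −0.23, and MCM2, MCM4 and MCM7 did not pass (0.15, −0.08 and −0.06). MCM5 lost its call with FPKM as deposited (log2 −0.73). WHI5, the G1/S repressor, differed by 2.61. HO, the mating type switching endonuclease transcribed in late G1, was at 3.44 and 2.73 against 99.9 and 99.9, 24.8-fold higher.

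The 10 histone genes were all higher in the knockout with the scale factors, 8 of them at least 2-fold, with a median of 1.46. Only 4 passed with FPKM as deposited, all higher. HTB2 and HTA2, copies of histones H2B and H2A, were at 141 and 135 against 1112 and 1071 and at 129 and 114 against 935 and 845, 7.87-fold and 7.29-fold higher. HHO1, the linker histone, was at 24.1 and 30.6 against 200 and 187. HHT1, a copy of histone H3, differed least, by 0.45. Histone mRNAs of yeast carry short poly(A) tails, and how selection on oligo-dT bears on them was not tested.

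Of 42 genes of mitosis and daughter separation 35 were higher (83.3%, against 37.3% of all genes) and 3 lower. At least 2-fold higher were 27 (64.3%, against 12.2%), and the median was 1.48. With FPKM as deposited 20 were higher and 1 lower (median 0.99). CLB2, the main mitotic cyclin, was at 8.15 and 9.07 normalised FPKM in treated wild type and at 63.8 and 63.7 in the treated knockout, 6.74-fold higher. SWI5, the activator of early G1 genes, was at 13.7 and 16.2 against 90.1 and 86.3. HOF1, of the cytokinetic ring, was at 6.19 and 7.68 against 60.5 and 61.4. AMN1, which inhibits mitotic exit and holds daughter separation in check, was at 69.9 and 71.2 against 320 and 314. The separation enzymes followed: the chitinase gene CTS1 differed by 2.26, the glucanase genes SCW11 and DSE2 by 2.13 and 2.06, and EGT2 by 2.68. ASE1, a bundler of spindle microtubules, was lower, at 115 and 100 against 31.4 and 32.7 (log2 −1.71 ± 0.08 SE).

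Windows upstream of 2 G1/S genes are shown for the letters that SBF and MBF bind. They cover the same distances as above, and capitals mark ACGCGT (the MluI cell cycle box) or CGCGAAA (the Swi4 cell cycle box), on either strand.
PCL1, chrXIV:87597-87846, plus strand: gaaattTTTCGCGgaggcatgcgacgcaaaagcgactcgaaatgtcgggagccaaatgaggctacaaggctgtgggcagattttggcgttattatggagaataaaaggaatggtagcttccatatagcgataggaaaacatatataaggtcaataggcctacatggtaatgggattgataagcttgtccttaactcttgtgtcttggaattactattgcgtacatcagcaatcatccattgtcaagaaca
MCD1, chrIV:444383-444632, plus strand: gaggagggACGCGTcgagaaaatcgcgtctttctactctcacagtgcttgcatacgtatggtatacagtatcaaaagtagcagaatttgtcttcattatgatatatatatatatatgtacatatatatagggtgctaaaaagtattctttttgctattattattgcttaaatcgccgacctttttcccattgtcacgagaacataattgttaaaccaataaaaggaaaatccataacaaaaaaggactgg
Each window holds 1 match, and the same windows of CLN2 and RNR1 hold 0, which says only that these letters are not in these windows. ACGCGT was in 57 of 705 windows (8.08%) of genes at least 2-fold higher, in 13 of 806 (1.61%) of those at least 2-fold lower and in 193 of 5813 (3.32%) of all. CGCGAAA was in 66 of 705 (9.36%), 9 of 806 (1.12%) and 229 of 5813 (3.94%). These shares are descriptions of the letters and say nothing of the factors.

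Genes for the cell surface were mostly higher, with exceptions among stress-induced wall genes. Of 57 genes for wall proteins and wall synthesis 39 were higher (68.4%, against 37.3% of all genes) and 11 lower (19.3%, against 39.9%). At least 2-fold higher were 24, and the median was 0.90. With FPKM as deposited 18 were higher and 9 lower (median 0.39). SRL1, a mannoprotein, was at 15.9 and 25.9 normalised FPKM in treated wild type and at 566 and 529 in the treated knockout, 25.7-fold higher. CIS3, a wall protein of the PIR family, was at 20.7 and 27.9 against 421 and 456. CWP2, a major wall mannoprotein, was at 151 and 265 against 3032 and 3402. GAS3, of a family of glucan-remodelling proteins, was at 8.79 and 9.65 against 94.1 and 92.8. YPS1, a surface protease, and SLT2, the kinase of the wall integrity pathway, were lower, at 252 and 264 against 59.4 and 57.5 and at 295 and 311 against 99.1 and 97.8. FKS1 and GSC2, the glucan synthase subunits of growth and of stress, went in opposite directions: FKS1 was at 54.4 and 64 against 116 and 119, and GSC2 at 42.2 and 49.3 against 14.4 and 15.3. The call for FKS1 ended with FPKM as deposited (log2 0.48).

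The seripauperin, DAN and TIR mannoproteins, many of them made under low oxygen or cold, were lower: of 23 tested, out of 30 listed, 17 were lower, 13 at least 2-fold, and 1 higher, with a median of −1.26. Near-identical members share reads, so single values are uncertain. TIR2 was at 85.5 and 88.9 against 16.9 and 17.7, and DAN1 at 16.3 and 12.5 against 1.72 and 1.69. TIR3, the member that was higher, was at 6.84 and 9.79 against 12.6 and 11.1, and its call ended with FPKM as deposited (0.03), with TPM (0.19), in a fit of the 4 treated libraries alone and without each of 5 libraries. Of 67 genes of folding and glycosylation in the endoplasmic reticulum 56 were higher, 22 at least 2-fold, and 3 lower, with a median of 0.74. With FPKM as deposited 13 were higher and 2 lower (median 0.24). PSA1, which makes GDP-mannose for glycosylation, was at 164 and 200 against 1576 and 1571, 8.65-fold higher, and PMT4, a protein mannosyltransferase, at 28.7 and 28.8 against 106 and 106. HAC1, the activator of the unfolded protein response, was lower, at 639 and 610 against 400 and 409. Of 31 sterol genes 22 were higher and 6 lower, with a median of 0.67, and with FPKM as deposited 2 were higher and 5 lower (median 0.17). ERG6, the sterol methyltransferase, was at 119 and 121 against 462 and 432, and UPC2, a sterol-sensing activator, at 72 and 61.9 against 34.1 and 33.2.

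**Figure D3:**
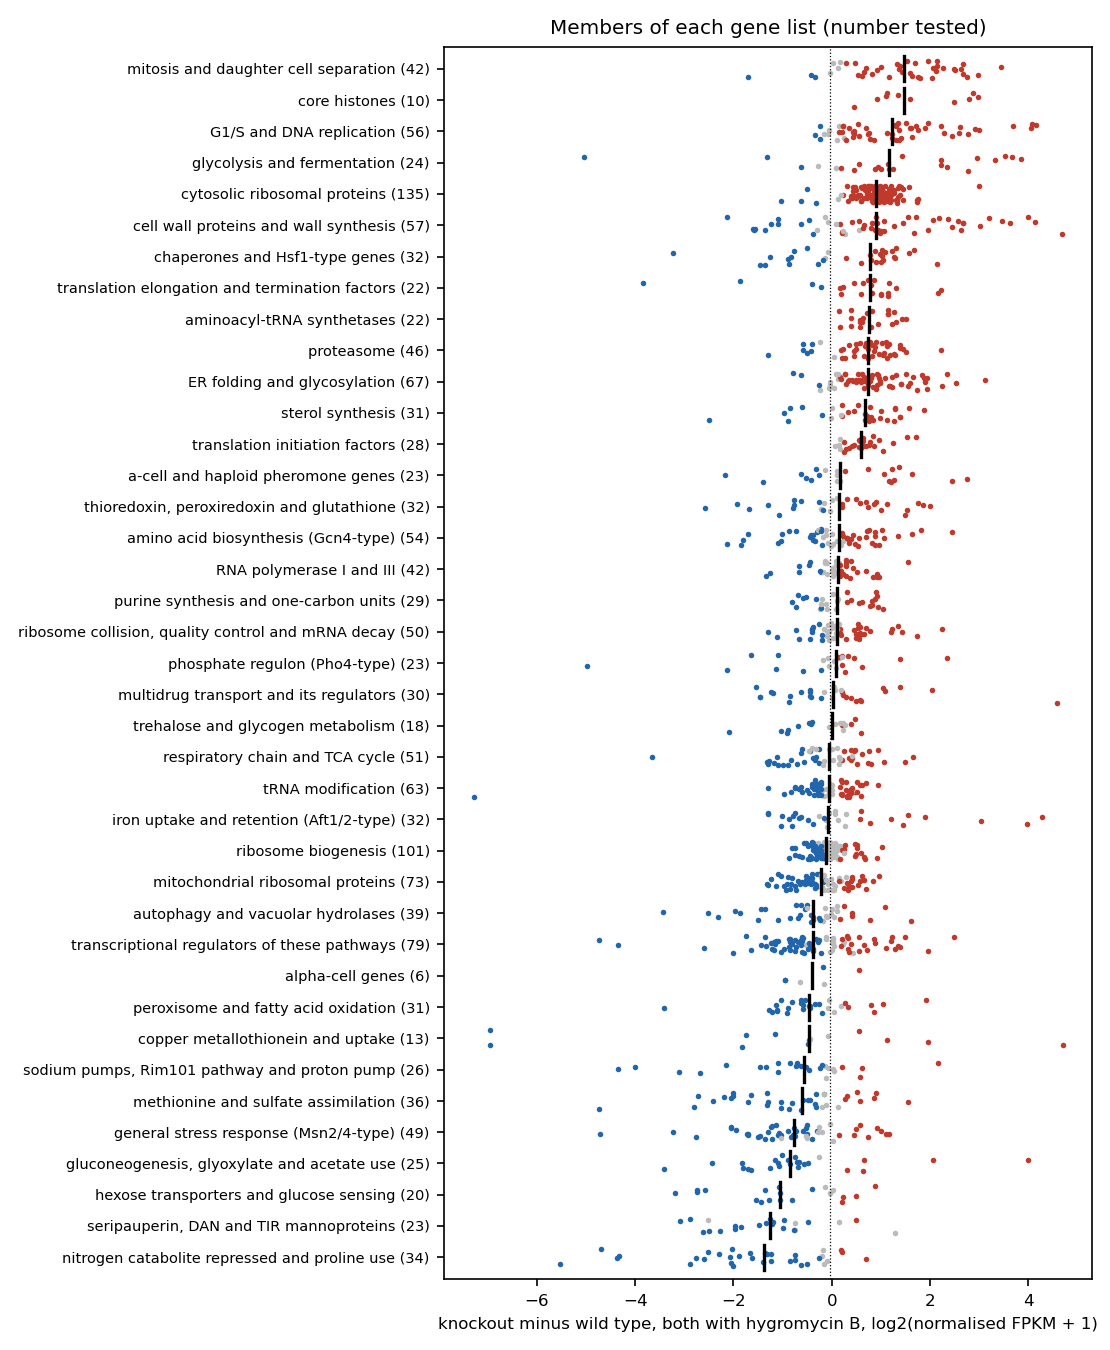
Knockout minus wild type, both with hygromycin B, on the log2(normalised FPKM + 1) scale, for each tested member of 39 gene lists, with the number tested in brackets and lists ordered by their median (black bar). Red points were higher and blue points lower past the threshold, grey points did not pass, and the dotted line is the median of all genes, −0.03; nitrogen genes (median −1.38) are at the bottom and mitosis genes (1.48) at the top.

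Genes of the translation machinery were mostly higher in the knockout. Of 135 cytosolic ribosomal protein genes 129 were higher (95.6%, against 37.3% of all genes), 51 at least 2-fold, and 4 lower, with a median of 0.91. This count depended on the scaling: 4 were higher and 2 lower with FPKM as deposited (median 0.40), 74 higher and 4 lower with TPM (0.58), and 75 higher and 20 lower under quantile normalisation (0.24). RPS22B was at 112 and 124 normalised FPKM in treated wild type and at 956 and 937 in the treated knockout, 7.96-fold higher (log2 2.99 ± 0.07 SE, limma adjusted p = 7.1e-07). A small nucleolar RNA lies within RPS22B, so its value may hold reads of another transcript. RPL22B and RPL15B, less used paralogues, were lower, at 731 and 640 against 360 and 307 and at 164 and 168 against 119 and 114. The call for RPL15B ended with FPKM as deposited. All 22 aminoacyl-tRNA synthetase genes, which charge tRNAs with amino acids, were higher, 8 at least 2-fold, with a median of 0.76, but 0 of the 22 passed with FPKM as deposited (median 0.26) and 10 with TPM. GUS1, glutamyl-tRNA synthetase, was at 119 and 133 against 343 and 343, and THS1, threonyl-tRNA synthetase, at 194 and 198 against 433 and 431, and both calls ended with FPKM as deposited.

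Of 28 initiation factor genes 24 were higher and 0 lower, with a median of 0.60, of which 1 passed with FPKM as deposited and 6 with TPM. TIF1, a copy of the RNA helicase eIF4A, was at 473 and 501 against 1178 and 1127, and its call was lost with FPKM as deposited (log2 0.74). Of 22 elongation and termination factor genes 18 were higher and 4 lower (median 0.77), and 2 were higher and 2 lower with FPKM as deposited. TEF4 and EFB1, subunits of the exchange factor of eEF1A, were at 160 and 203 against 829 and 868 and at 472 and 598 against 2440 and 2328. Small nucleolar RNAs lie within both genes. EFT1 and EFT2, the copies of eEF2, the translocation factor, differed by 1.15 and 1.01. The 2 factors that stood lowest are paralogues of constitutive ones: ANB1, the low-oxygen form of eIF5A, was at 153 and 138 against 9.2 and 9.17, 14.3-fold lower, and HEF3, a paralogue of the fungal elongation factor eEF3, at 27.7 and 28.5 against 6.66 and 7.39. YEF3, the main eEF3 gene, was at 661 and 729 against 1234 and 1186, a call that ended with FPKM as deposited (log2 0.29) and with TPM (0.48).

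Genes for making ribosomes did not follow the ribosomal proteins. Of 101 ribosome biogenesis genes 14 were higher (13.9%) and 45 lower (44.6%), against 37.3% and 39.9% of all genes. In this list 42 did not pass, 1 of the called genes changed at least 2-fold, and the median was −0.13. With TPM 2 were higher and 46 lower (median −0.45), and with FPKM as deposited 0 were higher and 7 lower (−0.63). FAF1, of small subunit assembly, was at 292 and 278 against 163 and 160, and CBF5, the pseudouridine synthase of nucleolar particles, was higher, at 644 and 712 against 1104 and 1072. The call for CBF5 ended in TPM (0.36) and with FPKM as deposited (0.18). Of 42 genes of RNA polymerases I and III 18 were higher and 8 lower, with a median of 0.12 that turned to −0.38 with FPKM as deposited and −0.20 with TPM. RRN3, which recruits polymerase I, was at 185 and 171 against 68.7 and 70.4. Of 73 mitochondrial ribosomal protein genes 18 were higher and 39 lower, with a median of −0.22. Their median was −0.315 without the drug, and the interaction was higher at 26 and lower at 15 of them (median 0.06). RSM10 was at 254 and 224 against 98 and 91.5, and MRPL28 at 195 and 193 against 87.8 and 88.

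With the scale factors the other tRNA modification enzymes had no common direction. Of 63 tested, TRM2 included, 25 were higher and 26 lower, a share near the background of 37.3% and 39.9%. With TPM 1 was higher and 29 lower (median −0.38), and with FPKM as deposited 0 were higher and 9 lower (−0.56). With the scale factors 2 changed at least 2-fold, TRM2 itself and MOD5, both lower. MOD5, which makes isopentenyladenosine next to the anticodon, was at 191 and 173 normalised FPKM in treated wild type and at 73.7 and 73.7 in the treated knockout (log2 −1.29 ± 0.06 SE, limma adjusted p = 5.9e-06). ABP140, the methyltransferase of 3-methylcytidine, was at 151 and 166 against 312 and 302, and TYW1, of wybutosine synthesis, at 118 and 120 against 170 and 173. Both calls ended with FPKM as deposited, and that of TYW1 also with TPM. Of 50 genes that handle collided ribosomes, aberrant mRNAs and mRNA decay 23 were higher and 12 lower, with a median of 0.10 that turned to −0.40 with FPKM as deposited and −0.22 with TPM. CDC48, the ATPase that extracts stalled chains, was at 129 and 135 against 439 and 441, and XRN1, the 5′ exonuclease, at 40.3 and 43.8 against 108 and 109. The call for XRN1 ended with FPKM as deposited. RQT4, of the complex that splits collided ribosomes, was lower, at 312 and 298 against 138 and 141.

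Of 46 proteasome genes 38 were higher (82.6%, against 37.3% of all genes), 15 at least 2-fold, and 6 lower, with a median of 0.74. With FPKM as deposited 1 was higher and 3 lower (median 0.23). ECM29, which tethers the core to its cap, was at 3.09 and 3.62 against 19.4 and 19.1, 4.67-fold higher. RPN1, a cap scaffold, was at 78.5 and 88.4 against 230 and 227, and its call ended with FPKM as deposited (0.94). RPN4, the activator of proteasome genes, was lower, at 214 and 207 against 137 and 145, and NAS2, an assembly chaperone, at 151 and 135 against 57 and 58.7. The letters GGTGGCA, on either strand, were in 29 of 46 proteasome windows (63.0%) and in 146 of 5813 of all (2.51%). They were in 29 of 705 windows of genes at least 2-fold higher (4.11%) and in 13 of 806 of those at least 2-fold lower (1.61%). The letters were chosen as the element of proteasome genes, so the share of this list is a description of the list.

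Stress genes were split by kind. The general stress response, driven by Msn2 and Msn4 on AGGGG letters, was mostly lower in the knockout. Of 49 genes 32 were lower (65.3%, against 39.9% of all genes), 20 at least 2-fold, and 9 higher, with a median of −0.76. HSP26, a small heat shock protein, was at 423 and 430 normalised FPKM in treated wild type and at 42.3 and 46.7 in the treated knockout, 9.4-fold lower (log2 −3.23 ± 0.10 SE, limma adjusted p = 1.4e-06). ROQ1, a small regulator of ubiquitin ligation, was at 366 and 316 against 49.3 and 49.6, and TFS1, an inhibitor of carboxypeptidase Y, at 263 and 232 against 77 and 72.8. SPG4, named for survival in stationary phase, was at 202 and 102 against 3.2 and 5.59. Of these, HSP26 and TFS1 also differed without the drug, by −1.67 and −1.03, and the median of the list was −0.58 there. The median interaction of the list was −0.01. YGP1 and ECM4 were higher, at 239 and 258 against 466 and 475 and at 14.2 and 14.5 against 33.9 and 30.2, and both calls ended with FPKM as deposited.

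Of 32 chaperone genes 19 were higher, 12 at least 2-fold, and 11 lower, with a median of 0.79, and 2 were higher and 8 lower with FPKM as deposited (median 0.28). SSA2, a constitutive Hsp70, was at 294 and 368 against 1463 and 1459, and HSC82, the constitutive Hsp90, at 651 and 639 against 1607 and 1595. SSA3, a stress-induced Hsp70, was at 84.9 and 80.5 against 34 and 34.2. The call for HSC82 ended with FPKM as deposited (log2 0.80). Of 18 trehalose and glycogen genes 4 were higher and 8 lower, and the median, −0.00, turned to 0.11 with quantile normalisation. PIG2, a regulator of glycogen synthase, was at 159 and 132 against 33.4 and 33.2.

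Of 39 genes of autophagy and vacuolar hydrolases 22 were lower (56.4%, against 39.9% of all genes) and 7 higher, with a median of −0.37. ATG39, a receptor for autophagy of the nuclear envelope, was at 87.1 and 72.9 against 6 and 6.89, 10.9-fold lower, and ATG8, the ubiquitin-like protein of the autophagosome membrane, at 479 and 391 against 93 and 80.7. ATG13, of the initiating kinase complex, was higher, at 15.1 and 14.8 against 48.1 and 48.1. Of 31 peroxisome and fatty acid oxidation genes 21 were lower and 6 higher (median −0.46), among them the import receptor PEX5 at 142 and 135 against 65.8 and 68.3. Of 32 thioredoxin, peroxiredoxin and glutathione genes 16 were higher (50%) and 11 lower (34.4%), against 37.3% and 39.9% of all genes. Their median of 0.15 turned to −0.35 with FPKM as deposited and −0.17 with TPM. TSA1, the main peroxiredoxin, was at 540 and 539 against 2026 and 1920, and GTT2, a glutathione transferase, was lower, at 208 and 191 against 60.9 and 62.4. YHB1, a flavohaemoglobin that removes nitric oxide, was at 33.2 and 44.7 against 668 and 614, 16.2-fold higher.

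Sulfur genes were lower and other amino acid genes mixed. Of 36 genes of methionine and sulfate assimilation 25 were lower (69.4%, against 39.9% of all genes) and 7 higher. At least 2-fold lower were 15 (41.7%, against 13.8%), and the median was −0.61. BY4741 lacks MET17, which was listed at 0 in all 8 libraries, and its medium supplies methionine. MHT1, which makes methionine from S-methylmethionine, was at 153 and 148 normalised FPKM in treated wild type and at 21.3 and 20 in the treated knockout, 6.99-fold lower. MET2 and MET16, of homoserine acetylation and sulfate reduction, were at 180 and 162 against 40 and 41.2 and at 155 and 142 against 37.1 and 35.6. MET28, a cofactor of the Met4 activator, was at 111 and 100 in wild type and at 11.2 and 0.318 in the knockout, whose libraries lay far apart (log2 −4.73 ± 0.95 SE, limma adjusted p = 0.0036). CYS4, cystathionine beta-synthase, was higher, at 227 and 257 against 728 and 696, a call that ended with FPKM as deposited (1.05). Of 54 other amino acid biosynthesis genes 25 were higher (46.3%) and 18 lower (33.3%), against 37.3% and 39.9% of all genes. Their median of 0.15 turned to −0.36 with FPKM as deposited and −0.18 with TPM. GLT1, glutamate synthase, was at 59 and 62.7 against 15.9 and 16.7. LYS20, the first enzyme of lysine synthesis, differed by 2.45.

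Of 29 purine and one-carbon genes 13 were higher and 7 lower, with a median of 0.12 that turned to −0.38 with FPKM as deposited and −0.20 with TPM, and 1 changed at least 2-fold. Here the untreated genotypes differed more: the median without the drug was −0.53, and ADE17, which carries out the last steps to IMP, was then at a mean of 566 in wild type and 74.4 in the knockout, against 87 and 97.1 in treated wild type and 53.8 and 50.8 in the treated knockout. Of 23 phosphate genes 9 were higher and 7 lower, with a median of 0.09 that turned to −0.42 with FPKM as deposited and −0.24 with TPM. PHO89, a sodium-coupled phosphate importer, was at 98.3 and 106 against 2.1 and 2.5, 31.4-fold lower (log2 −4.97 ± 0.10 SE, limma adjusted p = 5.3e-07), and SPL2, which restrains low-affinity uptake, at 73.2 and 74.7 against 15.6 and 16.7. PHO84, the high-affinity importer, differed by −0.22, and PHO5, the secreted acid phosphatase, did not pass (−0.06). PHO3, a constitutive acid phosphatase, was at 28.7 and 36.2 against 171 and 167.

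Ion and drug transport held large single differences. Of 26 genes of sodium pumps, the Rim101 pathway and the proton pump 17 were lower, 9 at least 2-fold, and 4 higher, with a median of −0.57. ENA1, the sodium efflux pump, was at 539 and 514 normalised FPKM in treated wild type and at 60 and 59.9 in the treated knockout, 8.64-fold lower (log2 −3.11 ± 0.05 SE, limma adjusted p = 3.4e-07). The repressor NRG1, which acts on ENA1 and on glucose-repressed genes, was at 2362 and 2132 against 102 and 116, 20.5-fold lower, and was at means of 24 and 20.1 in the untreated groups. RIM8, an adaptor of the Rim101 pathway, was at 144 and 154 against 22 and 22.5. NCE103, carbonic anhydrase, was at 4052 and 2317 against 116 and 112. PMA1, the plasma membrane proton pump, whose activity sets the membrane potential, was higher, at 300 and 349 against 1446 and 1481, 4.51-fold. Of 30 multidrug transport genes 12 were higher (40%) and 13 lower (43.3%), near the shares of all genes (37.3% and 39.9%). Their median of 0.02 turned to −0.46 with FPKM as deposited and −0.28 with TPM. AZR1, a transporter of the major facilitator family, was at 5.96 and 6.68 against 175 and 175, 24.1-fold higher, and SNQ2, an ABC exporter, at 83.1 and 90.2 against 365 and 353. Both differed without the drug as well, by 3.07 and 1.81, where the knockout cultures held Geneticin and wild type is not said to have. SGE1 was lower, at 157 and 142 against 52.4 and 55.6.

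The libraries were checked against the mating type of the strain. The a-factor genes MFA1 and MFA2, which define a cells, were listed at 0 in all 8 libraries. Both transcripts are short and a 0 may be a failed estimate, so these zeros say nothing of the mating type. STE2, the receptor of a cells, was at 233 and 260 in treated wild type and at 564 and 546 in the treated knockout. The alpha-cell genes MATALPHA1 and HMLALPHA1 were at or below 0.111, and STE3, the receptor of alpha cells, was between 2.36 and 5.76 in all 8. SAG1, another alpha-cell marker, was between 23.2 and 30.1 in all 8, and the alpha-factor gene MF(ALPHA)2 between 7.93 and 12.7. MF(ALPHA)1 was at or below 1.78. The alpha-cell markers were thus not all near 0. MATALPHA2 and HMLALPHA2 had the same values, 304 and 267 against 144 and 151, and a cells carry part of that sequence at their own mating type locus. Of 23 a-cell and pheromone genes 11 were higher, 9 of them at least 2-fold, and 7 lower, with a median of 0.16 that turned to −0.23 with FPKM as deposited and −0.05 with TPM. BAR1, the protease that degrades alpha-factor, was at 12 and 13.7 against 90 and 93.7, and FAR1, the pheromone-activated inhibitor of G1 cyclins, at 14.7 and 15.4 against 85.7 and 87.6. ASG7 was lower, at 114 and 93.9 against 22.5 and 22.1. Of 6 alpha-cell genes tested 1 was higher, STE3, and 3 lower. STE3 lost its call with FPKM as deposited, with TPM, in a fit of the treated libraries alone, and without wild-type library 2 or knockout library 1 of the treated groups.

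Among 79 transcription regulators of these pathways 44 were lower, 17 at least 2-fold, and 22 higher, 9 at least 2-fold, with a median of −0.39. NRG1 and CUP2 were among the lower ones and SWI5 and PUT3 among the higher ones.

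Pairs of paralogues were also compared. Of 61 pairs tested 21 had both members changed in opposite directions (34.4%), 24 both in the same direction (39.3%), and in 16 at least 1 did not pass. Of all genes 37.3% were higher and 39.9% lower, so opposite calls are common in any pairing of genes, and the counts show nothing particular to paralogues. The signs of all 21 stayed opposite under all 3 other scalings, FPKM as deposited, TPM and quantile normalisation, and both members passed in 6, 18 and 21 of them. Beside PDC1 and PDC5, CYC1 and CYC7, FKS1 and GSC2, and YEF3 and HEF3, this held for ADH1 and ADH2, where ADH2, the ethanol-consuming form, was at 65.9 and 76.1 normalised FPKM in treated wild type and at 33.6 and 32.7 in the treated knockout. The ADP/ATP carriers of mitochondria also went in opposite directions, with PET9, the main form, at 115 and 136 against 295 and 310 and AAC1 at 208 and 194 against 32.8 and 33.5. The call for PET9 ended with FPKM as deposited (log2 0.77). In the pentose phosphate pathway TAL1 and NQM1 differed by 1.53 and −1.46 and SOL3 and SOL4 by 1.05 and −1.71. The acetyl-CoA synthetases ACS2 and ACS1 were at 47.4 and 49.2 against 151 and 152 and at 17 and 17.5 against 8.98 and 9.22. ADE16 and ADE17 differed by 0.92 and −0.80. TAL1, SOL3 and ADE16 lost their calls with FPKM as deposited (log2 1.02, 0.55 and 0.42). Pairs that moved together included the G1 cyclins CLN1 and CLN2 (2.44 and 4.16) and the citrate synthases CIT1 and CIT2 (−0.89 and −3.42).

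**Figure D4:**
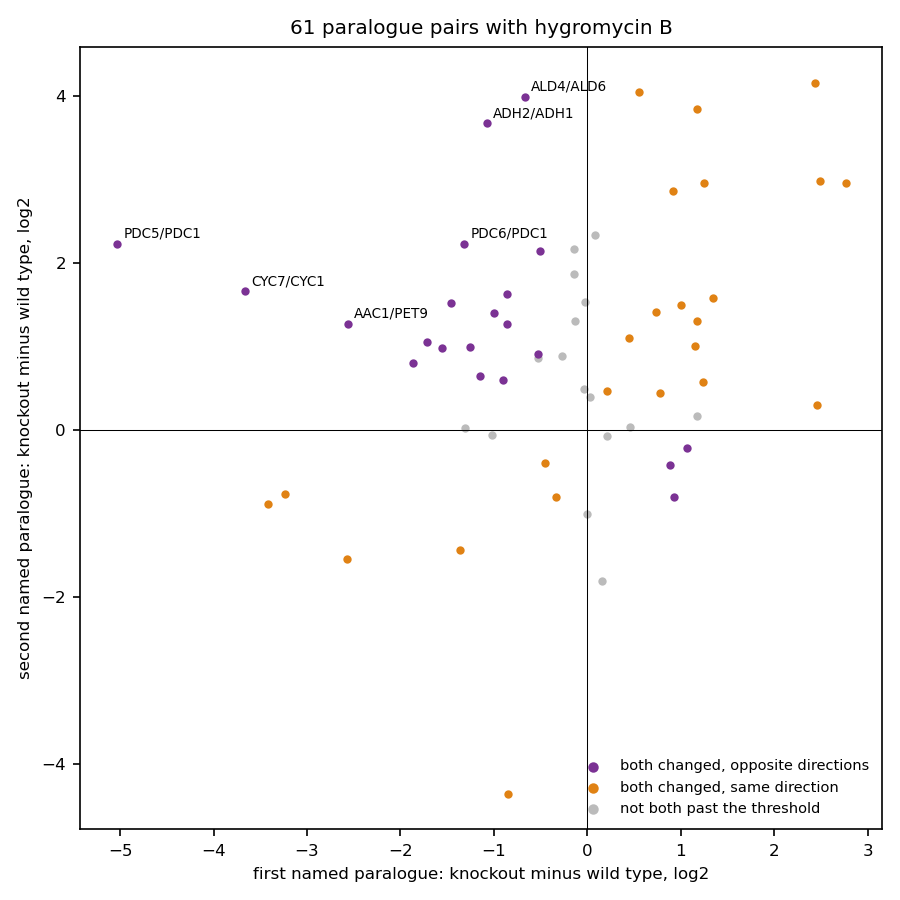
Knockout minus wild type with hygromycin B, log2, for 61 paralogue pairs, with the first named member on the horizontal and the second on the vertical axis. Purple points, 21 pairs, had both members changed in opposite directions, orange points, 24 pairs, in the same direction, and grey points had a member that did not pass; PDC5 and PDC1 lie farthest to the left.

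Whether the genotype difference differed between the drug conditions was tested with the interaction, the difference with hygromycin B minus the difference without it. Treated cells were collected at a lower density than untreated ones (0.4 against 0.6 to 0.8), so drug and density cannot be told apart here. The interaction passed at 4152 of 6439 genes (64.5%), 1972 of them higher (30.6%) and 2180 lower (33.9%). It was at least 2-fold at 1303 genes (20.2%), 612 of them higher (9.5%) and 691 lower (10.7%). The test passed at 469 genes without the scale factors and at 2238 with TPM. Of the 1678 genes changed at least 2-fold with the drug, 1516 had an interaction past the threshold in the same direction. Among all 4970 changed genes 3678 did. These genes were picked by the treated difference, which is itself a term of the interaction, so both counts are partly fixed by the choice and are no separate support. PCL1 was at 92 and 97.5 normalised FPKM in the treated knockout and had untreated means of 88.6 in wild type and 74.4 in the knockout, an interaction of 4.32 ± 0.13 SE (limma adjusted p = 8.5e-06). PUT1 had an interaction of −5.74, CUP1-1 one of −6.17 and SRL1 one of 4.65. A minority had a similar genotype difference in both conditions: SPL2 differed by −2.13 with and −2.10 without the drug (interaction adjusted p = 0.81), and RPN4 by −0.58 and −0.65 (adjusted p = 0.39). In iron uptake FIT2 had an interaction of −0.56 that did not pass (adjusted p = 0.169).

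**Figure D5:**
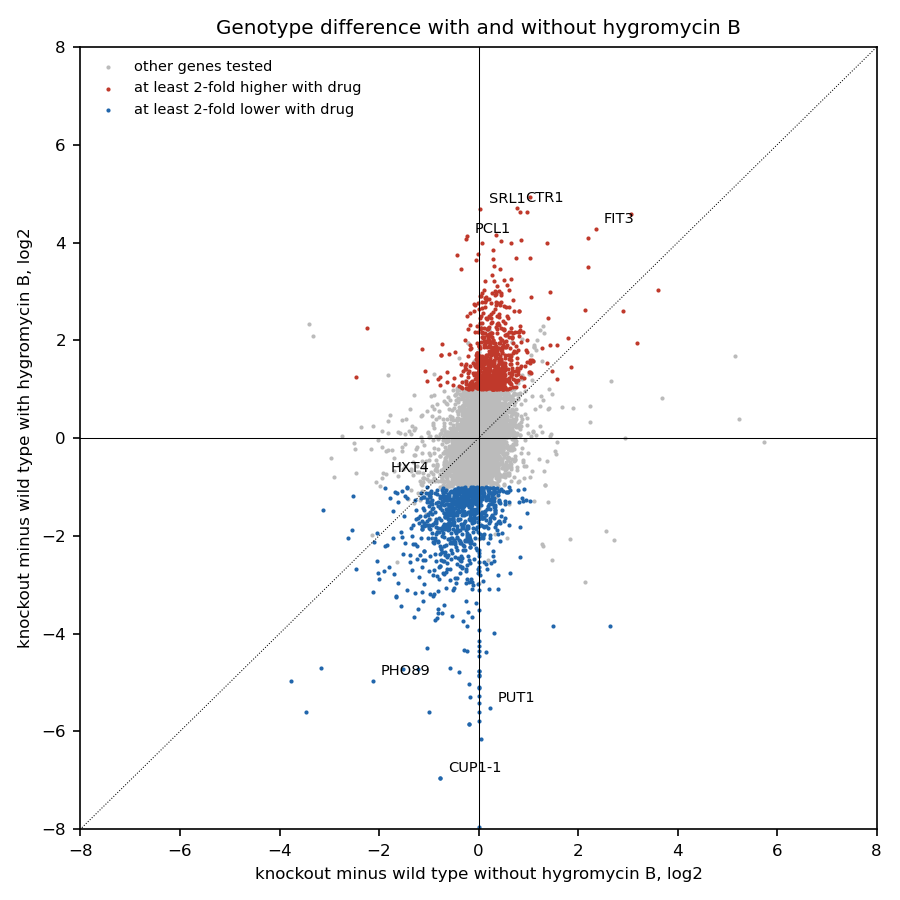
Knockout minus wild type, log2, without hygromycin B (horizontal) and with it (vertical) for each gene tested other than TRM2; the dotted line marks equal differences, and red and blue points were at least 2-fold higher or lower with the drug. Most coloured points spread along the vertical axis near a horizontal value of 0, whereas FIT3 and PHO89 also differed without the drug.

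Some features were above 0 in 1 genotype alone among the treated libraries. Of 21 with at least 10 normalised FPKM in both treated libraries of a genotype and 0 in both of the other, 20 were listed in wild type, TRM2 among them, and 1, YBL112C, in the knockout. YGR027W-A was at 260 and 238 in treated wild type, and YAR010C at 68.7 and 71.1. Both are frames of Ty1 retrotransposons, which have near-identical copies. Of the 21 features, 15 were also at 0 in both untreated wild-type libraries, and YBL112C was at 13.9 in 1 of those libraries. A 0 may be a failed estimate. YLR410W-B, a frame that overlaps YLR410W-A, had the largest positive difference of the genes that met the naming rule, at 5.63 and 4.83 in wild type and 191 and 185 in the knockout, and is uncertain because overlapping reads cannot be told apart.

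Gene length moved with the difference. In 5 equal bins of the genes by length the median difference was −0.31 in the shortest (159 to 645 bases), then −0.11, −0.08 and −0.05, and 0.21 in the longest (2124 to 14733 bases), and without the drug the medians ran from −0.04 to 0.13. The part of length in the results above was not tested. By chromosome the medians lay between −0.18 and 0.15.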

How the data were processed

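Per the labels' protocols, RNA over a length cut was selected on oligo-dT beads 2 times in a row and depleted of ribosomal RNA. Without saying which step each did, the submitters' processing notes name RSEM 1.3.3, STAR 2.7.8a, cutadapt 2.3 and FastQC 0.11.8. The deposited values are FPKM, fragments per kilobase of transcript scaled to the mapped fragments, made by the authors per library. The genome build, annotation and strand setting are not given in the sources used here. Reads of overlapping or antisense genes therefore cannot be told apart, and RSEM divides reads between near-identical copies. No counts were used, so the depth is unknown and no interval that needs it is given. Of 7127 features, 6047 matched RefSeq R64 by identifier.

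From these values, each library was divided by its median-of-ratios factor over the 6317 features above 0 in all 8 libraries. The 6439 genes averaging 1 FPKM or more were fitted as log2(normalised FPKM + 1) with limma 3.58.1 in R 4.3.3, with 1 mean per group, a mean-variance trend and Benjamini-Hochberg adjustment over all genes tested. A change is a two-sided adjusted p under 0.05. The fit was tested on simulated data. The 40 gene lists, the 61 paralogue pairs and the members were chosen with earlier results of these data known. Named genes are TRM2 and its neighbours, the 15 highest and 15 lowest differences among called genes whose treated libraries do not overlap between the genotypes, with no library at 0 and with at least 10 normalised FPKM, up to 4 members of each list by p, up to 2 called against its majority, 5 interactions in each direction, and pairs called in opposite directions. Other genes are named after their values were seen. Alternatives were another pseudocount, other filters, other scalings, no trend, a replicate block, the 4 treated libraries alone, and each library left out.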

Additional observations from a re-analysis of the deposited data

Results flagged for a closer look

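The difference between the genotypes itself differed between the drug conditions in the interaction test at 4152 genes. These conditions also differed in the density at which cells were collected. The 5 highest and 5 lowest interactions that met the naming rule are given here as values. All are on the log2 scale, the difference with hygromycin B minus that without it, with limma adjusted p under 0.05 and n = 2 libraries per group. The highest were YHR073W-A (5.41), SRL1 (4.65), LSO1 (4.49), CIS3 (4.37) and PCL1 (4.32). SRL1, CIS3 and PCL1 were lower in both libraries of treated wild type than in any other library. YHR073W-A was at 1.94 and 18.8 normalised FPKM in treated wild type and at 40.9 and 24.0 in the treated knockout, and its genotype difference with the drug did not pass (adjusted p = 0.157). Its interaction had an adjusted p of 0.0301, and without each of 6 libraries it did not pass, with values of 3.83 to 5.80 in those fits. LSO1 was at 2.51 and 4.21 in treated wild type and at 26.1 and 14.3 in the treated knockout. The lowest were CUP1-1 and CUP1-2 (−6.17 each), PUT1 (−5.74), and RUF5-1 and RUF5-2 (−5.66 each). CUP1-1 and CUP1-2, like RUF5-1 and RUF5-2, are repeat copies with the same values in every library, so these 4 entries come from 1 repeated region. The strand setting is unknown, so reads of CUP1 and RUF5 cannot be told apart, and RUF5 is no separate support. With 2 libraries per group no test for an outlying library was made.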

How the results depend on the processing

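The count of 4970 changed genes with hygromycin B lay between 4706 and 4988 with a pseudocount of 0.1, other filters on low values, quantile normalisation, no trend, the replicate block and the 4 treated libraries alone. It was 2128 with FPKM as deposited, where the libraries of a group differ in scale. The interaction, 4152 genes, was at 2238 with TPM and at 469 with FPKM as deposited. Of the called interactions 30.1% were higher in FPKM as deposited and 38.9% in TPM, against 47.5%. Leaving out 1 library at a time gave 4441 to 4937 changed genes, 1528 to 1805 of them at least 2-fold, and 3613 to 4322 interactions; a group then held 1 library, assumed to vary like the others. With the replicate block 4987 genes changed and 4145 interactions passed. After scaling, the gene deviations of libraries with the same replicate number were weakly correlated (0.00209 between the treated groups, −0.232 to 0.256 over all pairs of groups). In the untreated groups the ribosomal DNA share went with the number. It was 15.8% and 19.3% in wild-type and knockout library 1, and 2.01% and 5.36% in library 2. In the treated knockout library 2 had the larger share. Whether the numbers pair the samples is not settled by these values. Of 4127 alternative values for the 243 named genes, 3982 kept their direction and side of the threshold, 136 lost the call, 2 gained it and 7 changed sign. Of the 136, 18 arose with TPM and 72 with FPKM as deposited. The 7 were TPS3 (−0.29 with FPKM as deposited and −0.11 with TPM), ASP3-1 (−0.29 and −0.11), and, with FPKM as deposited, HXT1 (−0.00888), MAK21 (−0.0397) and MRPL13 (−0.12), each called higher with the scale factors. The cause was not tested.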
